A study of Rattus norvegicus with 40 samples.

Results

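The miR-29 family was followed in the plasma of rats after traumatic brain injury. Every miRNA whose name starts with rno-miR-29a, rno-miR-29b or rno-miR-29c was taken, whatever its arm or copy number, which gave 7 of the 752 miRNAs in the deposited read counts. Of these, 5 had reads, and 581 of all 752 miRNAs did. Adult male Sprague-Dawley rats received lateral fluid-percussion injury, a pressure pulse onto the exposed dura (TBI, n = 16), or anesthesia and a craniotomy without the pulse (sham, n = 4). By video-EEG in the sixth month, 7 of the TBI rats had epilepsy (TBI+) and 9 did not (TBI−). Tail vein plasma was sampled from each rat 2 days (D2) and 9 days (D9) after the operation, which gave 40 small RNA libraries, 1 per rat and day. Sham-operated rats had a craniotomy themselves, and no untreated rats were among these samples. The samples were plasma, so the cells or tissue that released a miRNA cannot be told from them.

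A microRNA is cut from a hairpin precursor, whose arms give a 5p and a 3p strand. In the miR-29 family the 3p strand is the guide that is loaded into the silencing complex, and the 5p strand is the passenger, most of which is degraded. The guide finds messenger RNAs by its seed, the bases next to its 5′ end. The miR-29 guides are known for repressing collagens, elastin and other extracellular matrix genes, DNA methyltransferases and members of the pro-apoptotic BH3-only family, and they are abundant in the mature brain.

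Sequences are given here because the family is defined by 1 seed, because the guides differ from each other at only a few bases, and because the 5p arms tell the gene copies apart. All 7 members matched by name to mature sequences of RefSeq (rat assembly GRCr8), written 5′ to 3′ with the seed, bases 2 to 8, in capitals.
rno-miR-29a-3p: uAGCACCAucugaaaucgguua
rno-miR-29b-3p: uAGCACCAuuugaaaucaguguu
rno-miR-29c-3p: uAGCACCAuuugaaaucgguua
rno-miR-29a-5p: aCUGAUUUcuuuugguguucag
rno-miR-29b-1-5p: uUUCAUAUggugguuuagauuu
rno-miR-29b-5p: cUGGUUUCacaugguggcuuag
rno-miR-29c-5p: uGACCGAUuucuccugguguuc

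The 3 guides shared the seed AGCACCA, and no other mature rat miRNA in that collection carried it. Each 5p arm had a seed that no other mature miRNA there had. Counted from 1 at the 5′ end, miR-29c-3p differed from miR-29a-3p by C10U alone. Over their shared 22 bases, miR-29b-3p differed from miR-29c-3p by G18A, U21G and A22U, and from miR-29a-3p by C10U as well. In GRCr8 the family lies in 2 clusters. Mir29a and Mir29b1 are on the minus strand of chromosome 4, with 291 bases between the hairpins. Mir29b2 and Mir29c are on the plus strand of chromosome 13, with 447 bases between them. MiR-29b-3p is the product of both Mir29b copies, whereas miR-29b-1-5p comes from Mir29b1 and miR-29b-5p from Mir29b2. The deposited counts were made on another assembly, so GRCr8 was used only for sequences, strands and distances.

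Only 1 of the 3 guides was counted. MiR-29b-3p had 14649 reads over all libraries, which was 94.9% of the reads of the family, and it was found in 40 of 40 libraries at a mean of 314 CPM (reads of the miRNA over all miRNA reads of the library, times 1000000). By mean CPM it ranked 99 of 581. MiR-29a-3p and miR-29c-3p were listed at 0 in all 40 libraries, although their passenger strands, miR-29a-5p and miR-29c-5p, had 293 and 208 reads.

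Both guides without reads lie opposite another annotated miRNA. In GRCr8, miR-29a-3p overlaps miR-3556a on the other strand by 18 bases, and miR-29c-3p overlaps miR-3556b by 20 bases. Those partners are read from the opposite strand of the same bases, which is why they are printed here.
rno-miR-3556a: cGAUUUCAgauggugcua
rno-miR-3556b: aCCGAUUUcaaauggugcua
MiR-3556a and miR-3556b were at 0 in all libraries too. The reverse complement of each partner is contained whole in the guide opposite to it. MiR-29b-3p has such a partner at 1 of its 2 copies, where miR-3587 overlaps it by 21 bases, and miR-3587 was at 0 while miR-29b-3p was not.

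The same held across the deposited miRNAs, of which 685 matched a RefSeq mature miRNA by name. Of 87 that overlap a mature miRNA of the other strand at every copy, 84 (96.6%) had no read in any library. Of 593 with no such overlap, 70 (11.8%) had no read. The 3 exceptions were miR-125b-5p with 33218 reads, miR-3120, whose overlap is 1 base, with 115 reads and miR-203b-3p with 1 read. The strand and overlap settings of the counting are not given in the sources used here, and their part in the zeros was not tested. A value of 0 for miR-29a-3p and miR-29c-3p was therefore not read as absence from plasma, and the guide of the family could be followed only through miR-29b-3p.

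**Figure D1:**
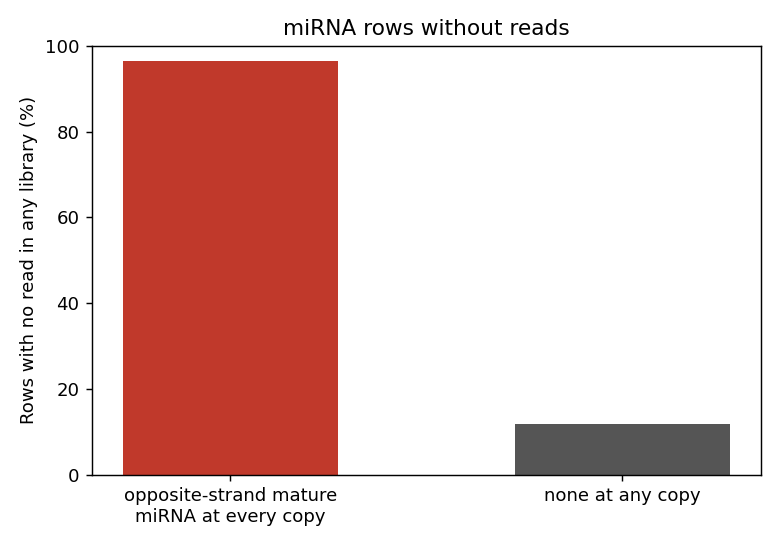
Share of miRNAs with no read in any of the 40 libraries (y axis, percent) among 87 miRNAs that overlap a mature miRNA of the opposite strand at every copy and among 593 that overlap none. The bars stand at 96.6% and 11.8%, and miR-29a-3p and miR-29c-3p belong to the first group.

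Before the comparisons, some facts about the libraries bear on the family. Library totals over all miRNAs were between 404542 and 2562083 reads on D2. On D9 they were between 332161 and 2864893 in TBI rats but between 140636 and 358202 in sham-operated rats. A floor of 3 reads therefore stood at 1.17 to 7.42 CPM on D2, at 1.05 to 9.03 CPM in TBI rats on D9 and at 8.38 to 21.3 CPM in sham-operated rats on D9, and such floors cover counting error only. The library numbers in the sample titles fall into 3 runs, and the sources used here do not say what a run is. All sham libraries of D2 are in run 1 and all of D9 in run 3, both times together with TBI+ rats 1 to 4.

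The levels of miR-29b-3p, the guide, overlapped between sham-operated and injured rats on D2. The 4 sham-operated rats had 331, 382, 401 and 430 CPM. The TBI+ rats had between 307 and 644 CPM with a median of 367, and the TBI− rats between 255 and 628 with a median of 376. All sham values lay inside the range of either TBI group. The mean was 386 ± 41.7 CPM in the sham group (SD, n = 4), 440 ± 131 in the TBI+ group (SD, n = 7) and 394 ± 110.9 in the TBI− group (SD, n = 9).

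The groups overlapped on D9 as well. Sham-operated rats had 138.6, 221, 228 and 444 CPM, and the value of 444 in sham rat 2 was the highest of that day. TBI+ rats had between 133.9 and 318 CPM with a median of 207. TBI− rats had between 110.7 and 277 CPM with a median of 220. The means were 258 ± 131 CPM (SD, n = 4), 222 ± 72.2 (SD, n = 7) and 202 ± 57.5 (SD, n = 9).

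Whether injury or later epilepsy goes with a different level of the family was asked within each day, with edgeR's quasi-likelihood test and Benjamini-Hochberg adjustment over all miRNAs with a read that day. A miRNA was called differentially expressed at an adjusted p below 0.05. On D2, 0 of the 5 members with reads were called between TBI and sham, where 6.19% of all 565 miRNAs tested were. The same was true of TBI+ against sham (0 of 5, background 3.19%), TBI− against sham (0 of 5, background 6.19%) and TBI+ against TBI− (0 of 5, background 0%). At an unadjusted p below 0.05 the edgeR counts were 0, 0, 0 and 1 of 5 members. On D9, 0 of 5 members were called between TBI and sham (background 3.51% of 541), TBI+ and sham (background 1.85%), TBI− and sham (background 4.81%) and TBI+ and TBI− (background 0%). At an unadjusted p below 0.05 these counts were 1, 1, 1 and 0 of 5 members, beside 86, 86, 67 and 22 of all 541 miRNAs. DESeq2 called 0 members in each of these 8 comparisons as well, but it gave only 3 of the 5 an adjusted p for TBI against sham on D2. In the same order, it called 45 of 334, 34 of 389, 37 of 421 and 0 of 564 miRNAs on D2. On D9 it called 16 of 363, 11 of 335, 22 of 335 and 0 of 534. The TBI+ and TBI− comparisons of a day share their 4 sham libraries.

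For miR-29b-3p the intervals show how large a difference could have gone undetected. On D2 the TBI against sham log2 fold change was 0.23 (95% interval −0.22 to 0.68; edgeR adjusted p = 0.614). It was 0.28 for TBI+ against sham (interval −0.23 to 0.80), 0.18 for TBI− against sham (interval −0.31 to 0.67) and 0.10 for TBI+ against TBI− (interval −0.31 to 0.51). On D9 the TBI against sham value was −0.19 (interval −0.79 to 0.42; edgeR adjusted p = 0.839), and it became 0.09 without sham rat 2. TBI+ against TBI− gave 0.16 on D9 (interval −0.39 to 0.71). Inside the run of each day that the sham libraries belong to, TBI+ rats 1 to 4 against sham gave 0.21 on D2 (edgeR adjusted p = 0.726) and −0.13 on D9 (edgeR adjusted p = 0.895).

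The guide fell between the days in every injured rat. MiR-29b-3p was lower on D9 than on D2 in 16 of 16 TBI rats, and the median rat kept 0.537 of its D2 level (range 0.176 to 0.878). The lowest fold was that of TBI− rat 6, which went from 628 to 110.7 CPM. Over the TBI rats the mean went from 414 ± 118.3 CPM on D2 to 211 ± 62.9 on D9 (SD, n = 16). The days overlapped, with 12 of 16 D9 libraries below the lowest D2 library. The log2 fold change was −0.97 (SE 0.16, edgeR adjusted p = 5.03e-06) in the main fit, which did not pair the libraries of a rat. With the rat as a block it was −0.96 (edgeR adjusted p = 1.57e-05).

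Between the days of the TBI rats, 3 of the 5 members with reads were called, and 32% of all 581 miRNAs tested were, so a call was common on this contrast. MiR-29b-3p was the only member that fell. MiR-29b-5p rose by 1.72 (SE 0.59; edgeR adjusted p = 0.0200) and miR-29a-5p by 0.97 (SE 0.35; edgeR adjusted p = 0.0264), both log2 fold changes. MiR-29b-1-5p, at 0.86 (interval −0.02 to 1.74; edgeR adjusted p = 0.135), and miR-29c-5p, at 0.15 (interval −0.91 to 1.21; edgeR adjusted p = 0.864), did not pass the test. DESeq2 called the same count, 3 members, among 175 of 462 miRNAs called. Over all 581 miRNAs the median log2 fold change was 0.06, with 81 called upward and 105 downward.

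In the sham-operated rats miR-29b-3p was lower on D9 in 3 of 4, at 0.346, 0.513 and 0.596 of the D2 level, and 1.34-fold higher in sham rat 2. The log2 fold change was −0.60 (interval −1.26 to 0.06; edgeR adjusted p = 0.342). It was −1.04 without sham rat 2 (edgeR adjusted p = 0.127), −0.22 with the hemolysis index, the log2 ratio of miR-451-5p to miR-23a-3p, as a covariate and −0.09 when libraries were scaled to miR-28-3p. No member was called in sham-operated rats (0 of 5 in edgeR, background 6.71%), where edgeR gave 0 and DESeq2 1 member, miR-29b-1-5p, at an unadjusted p below 0.05, and DESeq2 called 0. All sham libraries changed run between the days, so day and run cannot be told apart in them. The day change of miR-29b-3p differed between TBI and sham by −0.37 (interval −1.11 to 0.37; edgeR adjusted p = 0.772), and between TBI+ and TBI− by 0.05 (interval −0.62 to 0.72; edgeR adjusted p = 1.00). In both contrasts 0 of 5 members were called by edgeR (backgrounds 3.79% and 0%) and 0 by DESeq2 (29 of 361 and 1 of 577 miRNAs). At an unadjusted p below 0.05 each contrast gave 1 member, miR-29a-5p, in edgeR and DESeq2. Over all miRNAs that threshold gave 92 and 42 in edgeR and 86 and 30 in DESeq2.

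**Figure D2:**
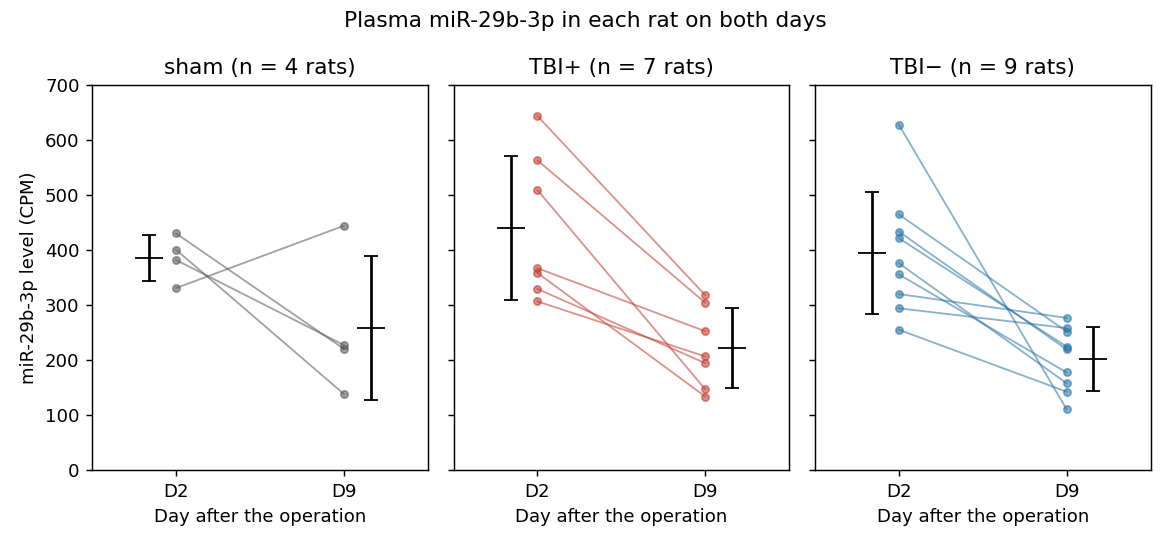
Level of miR-29b-3p (y axis, CPM) on D2 and D9 after the operation in sham, TBI+ and TBI− rats, with 1 point per library, a line joining the libraries of a rat, and the mean with SD beside each day. All 16 TBI lines go down, as do 3 of the 4 sham lines, and sham rat 2 rises to 444 CPM.

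**Figure D3:**
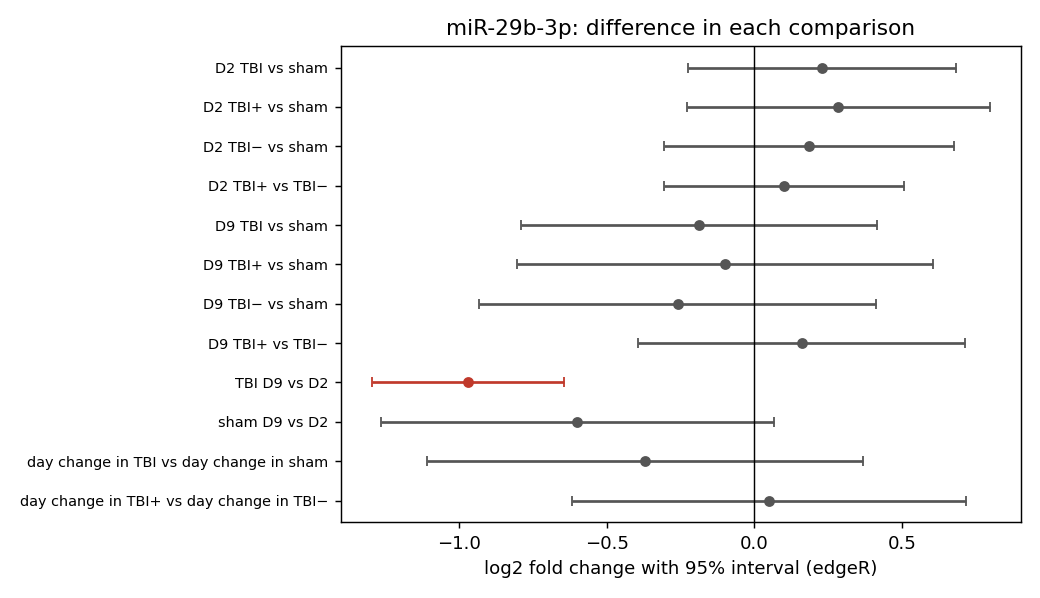
Log2 fold change of miR-29b-3p (x axis) with its 95% interval in each of the 12 comparisons from edgeR, with the comparison called at an adjusted p below 0.05 in red. The interval of TBI D9 vs D2 lies between −1.29 and −0.64, and all others include 0.

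Other measures moved with the day as well. The hemolysis index, the log2 ratio of miR-451-5p, which is abundant in red blood cells, to miR-23a-3p, was higher on D9 in 16 of 16 TBI and 4 of 4 sham-operated rats. In TBI rats its mean went from −0.28 ± 0.64 to 1.28 ± 0.63 (SD, n = 16). In sham-operated rats it went from −0.52 ± 0.66 to 1.13 ± 0.23 (SD, n = 4). MiR-451-5p rose in TBI rats (log2 fold change 0.86; edgeR adjusted p = 0.00287), and miR-23a-3p fell (−0.74; edgeR adjusted p = 0.000284). In sham-operated rats the log2 fold change was 0.15 for miR-451-5p (edgeR adjusted p = 0.997) and −1.37 for miR-23a-3p (edgeR adjusted p = 0.00764). There the index rose mainly with lower miR-23a-3p. With the index as a covariate, the day change of miR-29b-3p was −0.61 (edgeR adjusted p = 0.118), that of miR-29b-5p 2.33 (edgeR adjusted p = 0.0670) and that of miR-29a-5p 1.42 (edgeR adjusted p = 0.103), so none of the 3 calls remained. In that fit 7.92% of all 581 miRNAs were called, against 32% without the covariate. The index was higher on D9 in every rat, so day and index are confounded in this fit. Without the covariate the 3 values were −0.97, 1.72 and 0.97, so those of both 5p arms were larger with it. Across libraries, Spearman's rho of miR-29b-3p CPM with the index was −0.72 over all 40, −0.11 over the 20 of D2 and −0.37 over the 20 of D9, values that share library totals.

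Marker miRNAs of several cell types also moved with the day in TBI rats. Of the red blood cell list, 5 of 6 were in the deposited counts and all 5 rose, and their summed level was between 10842 and 48485 CPM on D2 and between 18003 and 74521 on D9. Of the platelet list, 2 of 5 rose and 1 fell (4023 to 6727 CPM on D2, 4259 to 10054 on D9). Of the lymphocyte list, 2 of 4 rose (12616 to 49420 CPM on D2, 15789 to 59827 on D9), and of the liver list 1 of 4 (11369 to 104999 CPM on D2, 29606 to 107683 on D9). Of the muscle list, 3 of 7 fell (155.7 to 1424 CPM on D2, 36.9 to 156.7 on D9), and of the neuron list 8 of 11 fell (4432 to 16572 CPM on D2, 3004 to 10937 on D9). The markers miR-126a-5p of platelets, miR-122-5p of liver, and miR-1-3p and miR-133a-3p of muscle were at 0 in all libraries, and all but miR-122-5p were found to overlap an opposite-strand miRNA at every copy. Members with reads, and so tested, were 5 for red blood cells, 4 for platelets, 4 for lymphocytes, 3 for liver, 5 for muscle and 11 for neurons. These stand against the 32% called over all miRNAs tested. The part of these markers in the change of the miR-29 family was not tested.

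Run by run of library numbers, mean miR-29b-3p in TBI rats was lower on D9 than on D2 each time, but mostly between different rats. Run 1 held TBI+ rats 1 to 4 on D2, and TBI+ rats 5 to 7 and TBI− rats 1 to 4 and 9 on D9. Run 3 held TBI− rats 7 to 9 on D2 and TBI+ rats 1 to 4 on D9. Only TBI− rats 5 and 6, in run 2, had both libraries in the same run. Day cannot be told apart from rat within runs 1 and 3, nor from epilepsy outcome within run 3. In run 1 the TBI means were 442 ± 111.7 CPM on D2 (SD, n = 4) and 221 ± 66.2 on D9 (SD, n = 8), with a log2 fold change of −0.94 (edgeR adjusted p = 0.0567). In run 2 they were 421 ± 133.1 (SD, n = 9) and 178.2 ± 54.2 (SD, n = 4), with −1.36 (edgeR adjusted p = 0.000979). In run 3 they were 355 ± 91.0 (SD, n = 3) and 225 ± 68.4 (SD, n = 4), with −0.74 (edgeR adjusted p = 0.0976). With the run as a covariate over all 40 libraries the value was −0.99 (edgeR adjusted p = 2.24e-05).

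The passenger arms were counted at no more than 28 reads in any library, so their values are coarse. MiR-29a-5p, which comes from Mir29a, was the most abundant of them, with reads in 36 of 40 libraries and a mean of 6.18 CPM. MiR-29c-5p averaged 4.26 CPM over the libraries with reads in 27, miR-29b-5p 3.81 CPM with reads in 27, and miR-29b-1-5p 3.43 CPM with reads in 34. These neighbouring means lie closer together than the spread between rats, whose SD was 6.26 CPM for miR-29a-5p over the 20 libraries of D9.

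For miR-29a-5p on D2, the sham-operated rats had 0.764, 5.96, 8.26 and 10.1 CPM, the TBI+ rats between 1.98 and 11.9 with a median of 6.29, and the TBI− rats between 0 and 4.94 with a median of 2.95. Of the 7 TBI+ rats, 5 lay above the highest TBI− rat. The means of 6.53 ± 3.20 CPM (SD, n = 7) and 2.76 ± 1.38 (SD, n = 9) differed by a log2 fold change of 1.25 (interval 0.32 to 2.18), with an unadjusted p of 0.0103 that was 0.488 after adjustment in edgeR, so the difference failed the correction. Runs 1 and 3 held only 1 of these groups each on D2. In run 2 the 3 TBI+ rats had between 6.29 and 8.52 CPM and the 6 TBI− rats between 0 and 4.94. On D9 the means were 8.13 ± 4.51 CPM for TBI+ (SD, n = 7) and 9.82 ± 7.09 CPM for TBI− (SD, n = 9), with a log2 fold change of −0.12 (interval −1.11 to 0.88; edgeR adjusted p = 0.9745).

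On D9, miR-29a-5p was found in 16 of 16 TBI rats and in 1 of 4 sham-operated rats. TBI rats had between 3.16 and 22.4 CPM with a median of 8.40, and sham rat 2 had 6.17 CPM from 1 read, while sham rats 1, 3 and 4 were at 0. Pooled over libraries, 169 of 20410969 reads in TBI rats against 1 of 863022 in sham-operated rats gave a ratio of 7.15, with an exact 95% interval of 1.27 to 284 that covers counting error only. In edgeR the unadjusted p was 0.0147 and the adjusted p 0.172. The floor of 3 reads was 8.38 CPM in the deepest sham library of D9 and 8 of 16 TBI rats lay below it. Between sham and TBI+ rats 1 to 4, all in run 3, the edgeR adjusted p was 0.741.

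Between the days, miR-29a-5p was higher on D9 in 13 of 16 TBI rats and in 1 of 4 sham-operated rats. In TBI rats its mean went from 4.41 ± 2.97 CPM to 9.08 ± 5.97 (SD, n = 16). It was higher on D9 in 8 of 9 TBI− rats and in 5 of 7 TBI+ rats. The difference between the changes of TBI+ and TBI− was −1.40 (interval −2.76 to −0.05), with an unadjusted p of 0.0426 that was 0.621 after adjustment in edgeR. The call of miR-29a-5p between the days was lost without any 1 of TBI+ rat 5 and TBI− rats 1, 2, 4 and 8, where edgeR adjusted p lay between 0.0532 and 0.170. The lowest log2 fold change among these was 0.65, without TBI− rat 1. Within runs 1, 2 and 3 of the library numbers, mostly between different rats, it was 1.01, 0.41 and 0.51 (edgeR adjusted p = 0.285, 0.633 and 0.753). With the run as a covariate it was 0.74 (edgeR adjusted p = 0.117).

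MiR-29b-5p, the passenger of Mir29b2, was found in 9 of 16 TBI libraries on D2 and in 13 of 16 on D9. On D2 the TBI rats had between 0 and 7.42 CPM with a median of 0.804, and on D9 between 0 and 28.5 with a median of 3.81. It was higher on D9 in 10 of 16 TBI rats, lower in 3 and at the same value in 3. TBI− rat 4 with 28.5 CPM and TBI+ rat 5 with 14.2 CPM stood apart on D9. Without both rats, a choice made after seeing the data, the log2 fold change was 0.89 (edgeR adjusted p = 0.269) against 1.72 with them. Leaving out TBI+ rat 5, TBI− rat 1, TBI− rat 4 or TBI− rat 8 alone also ended the call (edgeR adjusted p = 0.0503 to 0.106), and without TBI− rat 4 the log2 fold change was 1.21. Within runs 1, 2 and 3, mostly between different rats, it was 2.38, 0.91 and 1.10 (edgeR adjusted p = 0.0976, 0.515 and 0.603). With the run as a covariate it was 1.51 (edgeR adjusted p = 0.0596). In sham-operated rats the mean was 3.18 ± 3.77 CPM on D2, from 12 reads, and 6.26 ± 5.81 CPM on D9, from 5 reads in smaller libraries (SD, n = 4 each).

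MiR-29b-1-5p, the passenger of Mir29b1, had a median of 1.66 CPM on D2 and 3.14 on D9 in TBI rats, and was higher on D9 in 9 of 16. In sham-operated rats it was found in 4 of 4 libraries on D2, at 0.764 to 4.50 CPM, and in 3 of 4 on D9, with a maximum of 14.8 CPM from 3 reads. The passengers of the copies were counted about equally, with 143 reads of miR-29b-1-5p and 141 of miR-29b-5p over all libraries. In TBI rats the counts were 43 and 29 reads on D2 and 84 and 95 on D9.

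MiR-29c-5p, the passenger of Mir29c, took only even values. All 27 of its counts above 0 were even, with a highest count of 24. Of 394 miRNAs with reads in at least 20 libraries, 4 (1.02%) had even counts alone, and they were miR-29c-5p, miR-340-3p, miR-350 and miR-503-5p, named here after their values were seen. RefSeq lists 1 copy of miR-29c-5p, and the cause of the even counts was not tested. With its counts divided by 2, its mean in TBI rats was 1.81 CPM on D2 and 2.22 on D9, in place of 3.63 and 4.43. In TBI− rats it had a median of 0 CPM on D2 and 4.97 on D9, and in TBI+ rats 2.17 and 1.92. On D9 TBI+ against TBI− gave a log2 fold change of −1.29 (interval −2.70 to 0.11; edgeR adjusted p = 0.802). In sham-operated rats on D9 it was at 0 in 3 libraries and at 22.3 CPM, from 8 reads, in sham rat 4.

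**Figure D4:**
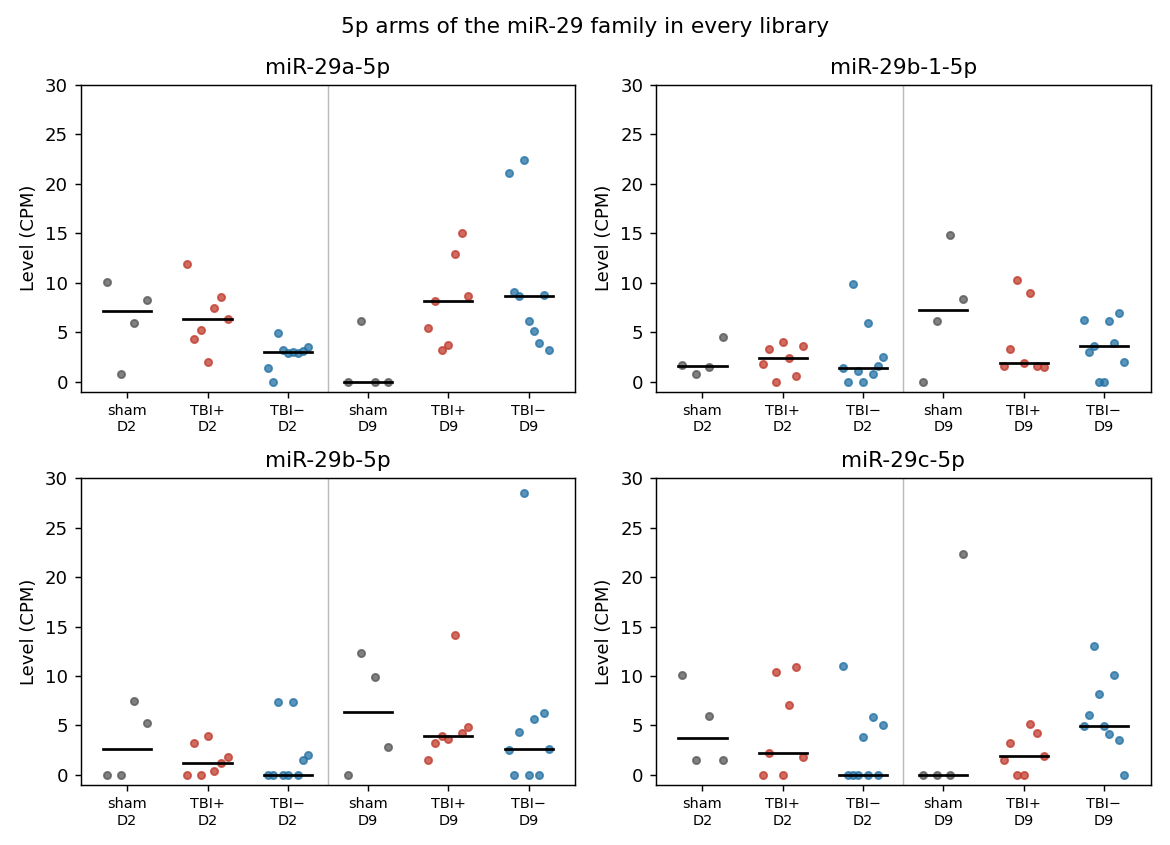
Level of each miR-29 passenger arm (y axis, CPM) in every library, by group and day, with 1 point per library and a line at the group median. On D9 miR-29a-5p is at 0 in 3 of 4 sham libraries and above 3 CPM in all 16 TBI libraries, and miR-29b-5p reaches 28.5 CPM in TBI− rat 4.

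The ratio of passenger to guide within a library does not depend on how libraries are scaled. It does depend on how fully the guide was counted. MiR-29b-3p overlaps miR-3587 at 1 of its 2 copies, and the effect of this on the ratio was not tested. The reads of both miR-29b passengers together were 0.815% of the miR-29b-3p reads in TBI rats on D2 (72 against 8832 reads) and 4.36% on D9 (71 and 108 reads in TBI+ and TBI− rats against 4104). On the reads alone, the ratio was higher on D9 in 14 of 16 TBI rats, lower in 1 and at 0 on both days in 1, TBI− rat 5. In sham-operated rats it was 1.40% on D2 (21 against 1502 reads) and 5.69% on D9 (12 against 211), higher on D9 in 3 of 4 and lower in sham rat 1, which went from 1 read to 0. On the log2 scale, with 0.5 reads added to each count, the median change per rat was 2.21 in TBI (range −0.27 to 5.61) and 2.13 in sham-operated rats (range 1.22 to 3.80). TBI+ and TBI− rats overlapped, with medians of 1.84 and 2.72.

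For miR-29a-5p against miR-29b-3p, products of different copies, the pooled ratio in TBI rats was 1.14% on D2 and 4.12% on D9, higher on D9 in 14 of 16 rats. In sham-operated rats it was 1.46% on D2 and 0.474% on D9, from 1 read, and higher in 1 of 4 on the reads alone. The log2 ratio of miR-29a-5p to miR-29b-1-5p, whose genes lie in the same cluster, had a median of 0.79 on D2 and 1.16 on D9 in TBI rats, and of 1.20 and −1.40 in sham-operated rats, with 0.5 reads added to each count. The sham libraries of D9 held 1 read of miR-29a-5p and 7 of miR-29b-1-5p in all. Their median depends on the added reads and was −1.0 with 1 read added. These ratios were not tested, since their members were chosen with results of these data known.

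**Figure D5:**
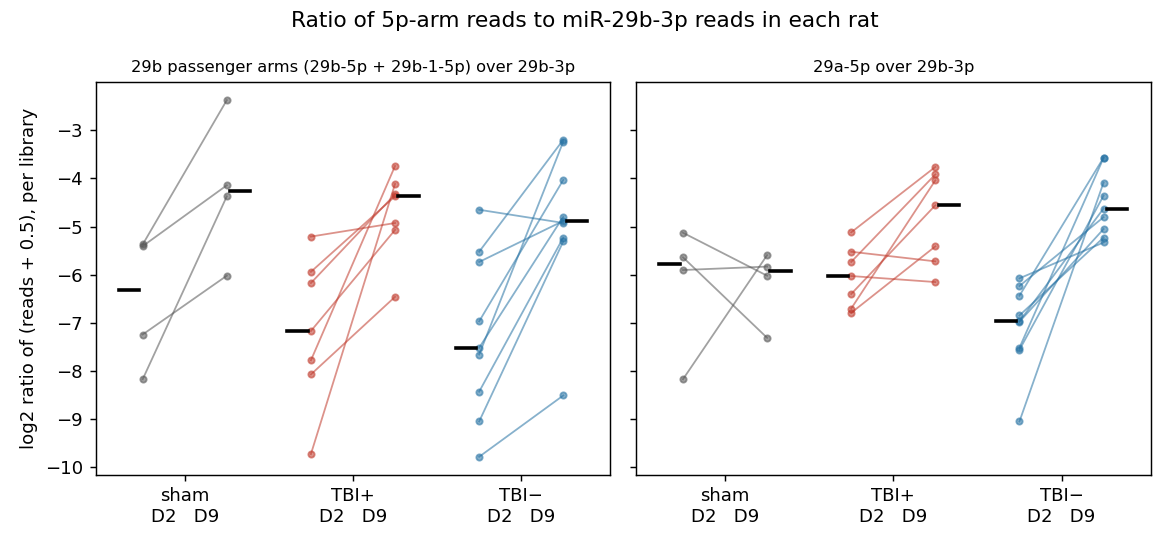
Log2 ratio of passenger reads to miR-29b-3p reads per library (y axis, 0.5 reads added to each count), D2 to D9, with a line per rat and a bar at the median of each group and day. On the reads alone, with none added, the ratio of both miR-29b passengers was higher on D9 in 14 of 16 TBI and 3 of 4 sham-operated rats, and that of miR-29a-5p in 14 of 16 and 1 of 4; the added reads turn the line upward in 1 more TBI rat and 1 more sham-operated rat for the former and 1 more sham-operated rat for the latter.

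The miRNAs whose levels most resembled that of miR-29b-3p over the 40 libraries, among 205 with at least 10 reads in at least 32 libraries, were miR-22-5p (Spearman's rho 0.849), miR-152-3p (0.812), miR-148b-3p (0.771), miR-145-5p (0.766) and miR-10a-3p (0.739). The median rho of the candidates was −0.0692. All 5 fell between the days in TBI rats, with log2 fold changes from −1.20 for miR-148b-3p to −2.42 for miR-145-5p. Within D2 alone rho was 0.776 for miR-22-5p, 0.531 for miR-152-3p, 0.550 for miR-148b-3p, 0.168 for miR-145-5p and 0.0602 for miR-10a-3p. Within D9 the values were 0.513, 0.435, 0.304, 0.344 and 0.272. The points share their library totals, and these values are a description. MiR-29a-3p, at 0, could not be set beside other miRNAs in this way. For miR-29c-5p the closest among 333 candidates with reads in at least 32 libraries was miR-221-5p, at 0.553, followed by miR-16-3p, let-7c-5p, let-7a-5p and miR-540-3p at 0.402 to 0.370.

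MiRNAs that share targets with the miR-29 guides were counted alongside. Of 3 known to act on DNA methyltransferases, miR-148b-3p and miR-152-3p fell between the days in TBI rats (background 32%), by 1.20 and 1.45 on the log2 scale (edgeR adjusted p = 2.70e-06 and 1.87e-07). They fell in sham-operated rats too (background 6.71%), by 1.71 and 1.57 (edgeR adjusted p = 0.00524 and 0.0149). MiR-148a-3p, the most abundant of the 3 (mean 9898 CPM in TBI rats on D2, beside 820 and 821), had a log2 fold change of −0.11 in TBI rats (edgeR adjusted p = 0.614). Within either day 0 of 3 were called between TBI and sham (background 6.19% on D2 and 3.51% on D9). The median day change of the list in TBI rats was −1.20, the value of miR-148b-3p, beside 0.06 over all miRNAs. MiR-29b-3p was at −0.97 on this contrast. MiR-148b-3p and miR-152-3p were also among the 5 miRNAs most like miR-29b-3p over the same libraries, so their shared sign is not separate evidence.

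Of 15 miRNAs known for acting on fibrosis and extracellular matrix, 14 had reads and were tested, and 5 rose and 2 fell between the days in TBI rats (background 32%), with a median of 0.46 beside 0.06 over all miRNAs. MiR-145-5p, which is abundant in smooth muscle, fell by 2.42 (edgeR adjusted p = 4.49e-13) and miR-214-3p by 1.23 (edgeR adjusted p = 1.17e-06), both log2 values. MiR-155-5p rose by 0.72 (edgeR adjusted p = 0.0109), miR-200c-3p by 0.72 (edgeR adjusted p = 0.0372), miR-101a-3p by 0.62 (edgeR adjusted p = 0.0216), miR-21-5p, which promotes fibrosis, by 0.60 (edgeR adjusted p = 0.000317) and miR-30a-5p by 0.47 (edgeR adjusted p = 0.000497). In sham-operated rats 1 rose, miR-200c-3p, and 2 fell, miR-145-5p and miR-214-3p (background 6.71%). On D2, 0 of 14 were called between TBI and sham (background 6.19%), and 1 of 14 between TBI+ and sham (background 3.19%), miR-155-5p, which was lower in TBI+ rats (log2 fold change −1.19; edgeR adjusted p = 0.0441). On D9, 1 of 14 was called between TBI and sham (background 3.51%), miR-200c-3p, which was lower in TBI rats by 2.49 on the log2 scale (edgeR adjusted p = 0.000144). Its D9 levels were 28.4 to 401 CPM in sham-operated rats (median 37.2) and 12.9 to 40.7 CPM in TBI rats (median 18.2). Without sham rat 2, edgeR called 0 of all 541 miRNAs between TBI and sham on D9. Between the days of sham-operated rats it then called 2 of 580, with 0 upward.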

How the data were processed

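Small RNA libraries were made from plasma RNA with a TruSeq kit and sequenced on 2 flow cells. The authors trimmed reads with Trimmomatic 0.36, dropped reads under 17 bases, checked quality with FastQC 11.8, aligned with Bowtie2 to the rat genome Rno6 and counted miRBase 22 miRNAs with featureCounts (Subread). They deposited raw read counts without normalization. Strand, overlap and multimapping settings are not given in the sources used here, and a setting that drops reads over overlapping features would lower the counts of such miRNAs.

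CPM was the count over the library total, times 1000000. Tests used edgeR 4.0.16 (quasi-likelihood, TMM normalization, R 4.3.3) with Benjamini-Hochberg adjustment over all miRNAs with a read. Fits held the 20 libraries of a day, or all 40 for changes between the days, where the main fit had no term for the rat. The standard error is the fold change over the root of F. The test was tested on simulated data. Library totals, given with the results, set a floor of 3 reads. Alternatives were DESeq2 1.42.0, other scalings, a low-count filter, thinning (seed 1), the hemolysis index, each sham rat left out, blocks by animal number or rat, and 1 run of library numbers; runs as a covariate, single runs between the days and TBI rats left out were added after seeing the data.

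Members were all miR-29a, miR-29b and miR-29c names, the 5 most alike miRNAs were named by Spearman's rho, and list members where called. Members and lists were chosen with earlier results of these data known. Rats are separate animals, and the D2 and D9 libraries of a rat are paired by its label. Deviations of a rat from its group means on the days correlated at a median of −0.03 (range −0.38 to 0.64, 20 rats).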

Additional observations from a re-analysis of the deposited data

Results flagged for a closer look

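Dixon's test at the 95% level was applied to 30 groups of library values of the members, and 4 values stood apart from the rest of their group. The test assumes normally distributed values, for which chance flags about 1 in 20 groups. Many of these groups hold counts of a few reads with zeros among them, so that rate does not apply here. A group in which only 1 library has reads is flagged by construction, as were both sham groups below. MiR-29b-5p on D9 stood at 14.2 CPM (11 reads) in TBI+ rat 5, where the next TBI+ rat had 4.80 CPM. On the same day it stood at 28.5 CPM (14 reads) in TBI− rat 4, where the next TBI− rat had 6.28 CPM. MiR-29c-5p on D9 stood at 22.3 CPM (8 reads) in sham rat 4, with 0 in the other sham-operated rats. MiR-29a-5p on D9 stood at 6.17 CPM (1 read) in sham rat 2, with 0 in the other sham-operated rats.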

How the results depend on the processing

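In the 11 comparisons other than D9 against D2 in TBI rats, 0 members were called under any of 136 alternatives. Some of these fits called few miRNAs at all, such as 0 of 541 for TBI against sham on D9 without sham rat 2. Others called more, such as 46 of 332 between the days of sham-operated rats with the low-count filter. Within a day that filter kept only 3 members on D2 and 2 on D9, and DESeq2 gave 3 an adjusted p for TBI against sham on D2. Between the days in TBI rats, 3 members were called under 10 of the 12 alternatives that were not chosen after seeing the data. The replicate block by rat was among them (3 members, as without it), and these 10 fits called 27.9% to 50.6% of all miRNAs. After thinning to the smallest library 1 member (miR-29b-3p) was called, and with the hemolysis index 0. Those 2 fits called 20.4% and 7.92% of all miRNAs, against 32% in the main fit. Among alternatives chosen after seeing the data, 1 was called with the run as a covariate, and 0, 1 and 0 in runs 1, 2 and 3 alone. In these fits 27.02%, 10.8%, 20.5% and 12.2% of all miRNAs were called. Leaving out 1 TBI rat at a time gave 1 to 3, with 26.9% to 34.5% of all miRNAs called. Leaving out TBI+ rat 5 and TBI− rat 4 together gave 1, with 28.3% called.

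MiR-29b-3p fell between the days in TBI rats in all 33 alternatives (log2 fold change −1.36 to −0.61, edgeR and DESeq2 adjusted p 2.84e-10 to 0.118). With any 1 rat left out it was −1.12 to −0.89. After thinning, edgeR adjusted p was 0.194 for miR-29b-5p and 0.298 for miR-29a-5p, with fewer reads by construction.

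Differences of miR-29b-3p that were not called changed sign without sham rat 2, to 0.091, 0.18 and 0.014 for TBI, TBI+ and TBI− against sham on D9 and to 0.093 for the day change of TBI against sham; over the 4 fits that each leave out 1 sham rat the lowest values were −0.41, −0.32, −0.48 and −0.57. The replicate block by animal number, which is only a shared number, gave 0.050 for TBI+ against sham on D9, and scaling to the library total gave −0.019 for the day change of TBI+ against TBI−. The cause was not tested. The blocks changed no call of a member. With 1 read added in place of 0.5, the median log2 ratio of miR-29a-5p to miR-29b-3p in sham-operated rats on D9 was −5.12 in place of −5.93. Depth limits the 5p arms most, above all in the sham libraries of D9.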
